A study of Mus musculus with 4 samples.

Results

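DNA replication and S phase genes encode the machinery that copies the genome once per cell division. The set holds 46 genes, chosen by name for their known roles with earlier results of these data known, and all 46 were measured among the 19938 genes of the arrays. Each gene was found by its symbol in the annotation of the Affymetrix mouse gene array, and the brightest probe set stood for the 4 members with 2 probe sets. The samples are leukemic whole bone marrow of C57BL/6 mice, whose leukemia carries MLL-AF9, the product of a chromosome translocation in acute leukemia of the myeloid line. There were 2 arrays labelled Hes1-null and 2 arrays labelled wild type; both genotypes carry MLL-AF9. Hes1 encodes a transcriptional repressor induced by Notch signalling, and the comparison addresses what its loss does in this leukemia. The labels give no age, no description of the deleted part of Hes1 and no statement that the samples came from separate animals, so the spread behind each p-value may be partly technical. Whole marrow also holds the normal cells that remain in the host. In such bulk RNA, fewer cells in S phase and less of these RNAs per cell cannot be told apart.

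Before S phase, the origin recognition complex with Cdc6 and Cdt1 loads the ring-shaped MCM2-7 helicase onto DNA. Cdc45 and the GINS complex then turn the loaded ring into an active helicase, primase and the DNA polymerases copy both strands, and PCNA, loaded by replication factor C, holds the polymerases in place. Most genes of this machinery are transcribed at the border of G1 and S phase under E2F transcription factors, and their RNAs are widely used as a sign of cell proliferation in leukemia.

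The promoters of these genes were therefore read for E2F strings. The choice of genes did not use the promoter letters, but it used known S phase roles, which go with E2F control. The share of matches is thus not independent of that choice. RefSeq promoter entries of build GRCm38.p6, each running from 250 bases before to 50 bases after a transcription start, matched 39 of the 46 members with 45 promoters. The 4 E2F core strings TTTCCCGC, TTTGGCGC, TTTCGCGC and TTTGCCGC were searched on both strands. A match was found in 15 of the 45 member promoters (33.3%), belonging to 15 genes, against 744 of 32851 promoters in the whole table (2.26%). The CCAAT string of the NF-Y box lay in 27 member promoters (60.0%), against 37.4% of all promoters. The TTTGAA string of the CHR-type element, known from genes of G2 phase and mitosis, lay in 5 (11.1%), against 17.9%. The promoters of 4 members are shown because these had the smallest genotype p-values among members with an E2F string before the start. Each sequence is the 250 bases before the start, read towards the gene, with the E2F string in capitals. They lie at chrX:93632156-93632405, minus strand (Pola1), chr5:138171884-138172133, minus strand (Mcm7), chr8:75109259-75109508, plus strand (Mcm5) and chr11:98907901-98908150, plus strand (Cdc6).
Pola1: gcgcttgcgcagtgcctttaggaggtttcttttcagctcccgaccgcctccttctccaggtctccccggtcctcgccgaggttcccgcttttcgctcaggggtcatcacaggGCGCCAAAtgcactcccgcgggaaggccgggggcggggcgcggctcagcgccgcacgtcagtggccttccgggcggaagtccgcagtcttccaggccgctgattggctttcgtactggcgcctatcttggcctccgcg
Mcm7: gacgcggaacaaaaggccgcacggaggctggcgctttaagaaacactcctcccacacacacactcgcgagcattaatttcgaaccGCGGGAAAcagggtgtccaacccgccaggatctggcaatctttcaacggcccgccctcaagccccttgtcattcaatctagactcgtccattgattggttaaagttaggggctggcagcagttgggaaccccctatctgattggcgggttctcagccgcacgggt
Mcm5: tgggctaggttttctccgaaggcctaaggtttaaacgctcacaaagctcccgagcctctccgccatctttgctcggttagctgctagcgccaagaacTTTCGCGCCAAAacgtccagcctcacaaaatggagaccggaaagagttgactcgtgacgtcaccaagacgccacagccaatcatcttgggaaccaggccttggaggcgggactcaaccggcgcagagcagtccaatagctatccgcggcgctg
Cdc6: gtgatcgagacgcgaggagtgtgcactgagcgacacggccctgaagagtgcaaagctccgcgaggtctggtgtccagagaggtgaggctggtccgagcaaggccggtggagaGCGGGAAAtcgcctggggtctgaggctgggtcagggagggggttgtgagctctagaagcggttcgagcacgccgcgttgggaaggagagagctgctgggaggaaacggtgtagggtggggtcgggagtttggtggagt
The capitals start 138 bases before the start in Pola1, 165 bases in Mcm7, 153 bases in Mcm5 and 138 bases in Cdc6. In Mcm5, 2 overlapping matches on opposite strands form 1 capital run. A match is a description of letters, not a shown binding site.

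**Figure D1:**
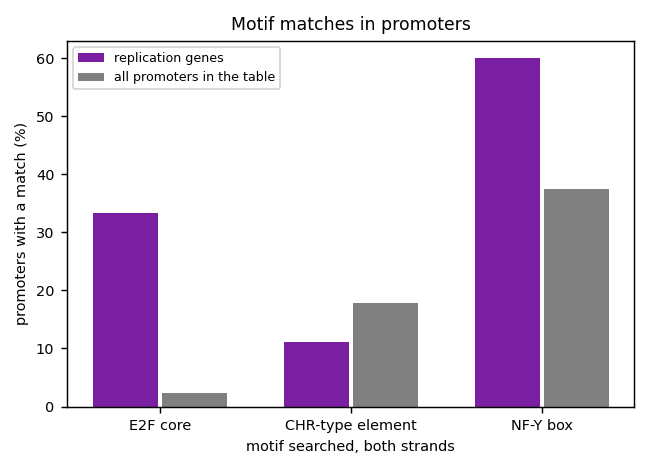
Share of promoters (vertical axis, %) that hold each motif (horizontal axis) on either strand, for the 45 promoters of replication genes (left bar of each pair) and all 32851 promoters in the RefSeq table (right bar). The E2F core strings lay in 33.3% of replication gene promoters and 2.26% of all promoters.

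Levels are on the log2 scale of the deposited intensities, and each difference subtracts the wild-type mean from the Hes1-null mean (± SE from limma fitted over all genes, n = 2 arrays per genotype). The linear median intensity of an array lay between 65.0 and 67.3. The Hes1-null arrays were less alike than the wild-type arrays. Across genes they correlated at r = 0.982, against r = 0.995 for wild type, and 683 genes were at least 2-fold apart between them, against 109 genes between the wild-type arrays. Xist, the RNA of the inactive X chromosome, lay at 11.73 and 7.25 on Hes1-null replicates 1 and 2, against 12.00 and 11.82 on wild-type replicates 1 and 2. Genes of the Y chromosome were dim throughout, none above 4.09 on any array. On Hes1-null replicate 2, Usp9y lay at 2.98, Uty at 3.32, Eif2s3y at 2.95 and Kdm5d at 4.07. The reason for the low Xist value on that array was not tested. Hes1 itself lay at 5.43 and 5.84 on the Hes1-null arrays, against 5.59 and 5.79 in wild type. Its level thus does not check the labels. Results below are therefore also given for each Hes1-null array on its own.

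No replication gene passed the test between genotypes. By limma with Benjamini-Hochberg adjustment over all genes, 0 of 46 members had an adjusted p under 0.05, where 0.145% of all genes did (29 of 19938). At an unadjusted p under 0.05 there were also 0 members, where 8.29% of all genes passed. The smallest unadjusted p was 0.086 (Pola1, adjusted p = 0.674). Differences ran from -0.63 to 0.26, 37 negative and 9 positive, with a median of -0.14 over the members against -0.02 over all genes. Among the 8986 genes whose mean level was at or above that of the dimmest member, Orc1, the median was also near 0, at -0.01. The 95% intervals of 38 members lay within a 2-fold change in either direction. The other 8 reached below a log2 difference of -1, and the highest upper end of any member was 0.69. These arrays thus leave room for a modest change in most members and for a larger decrease in those 8.

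**Figure D2:**
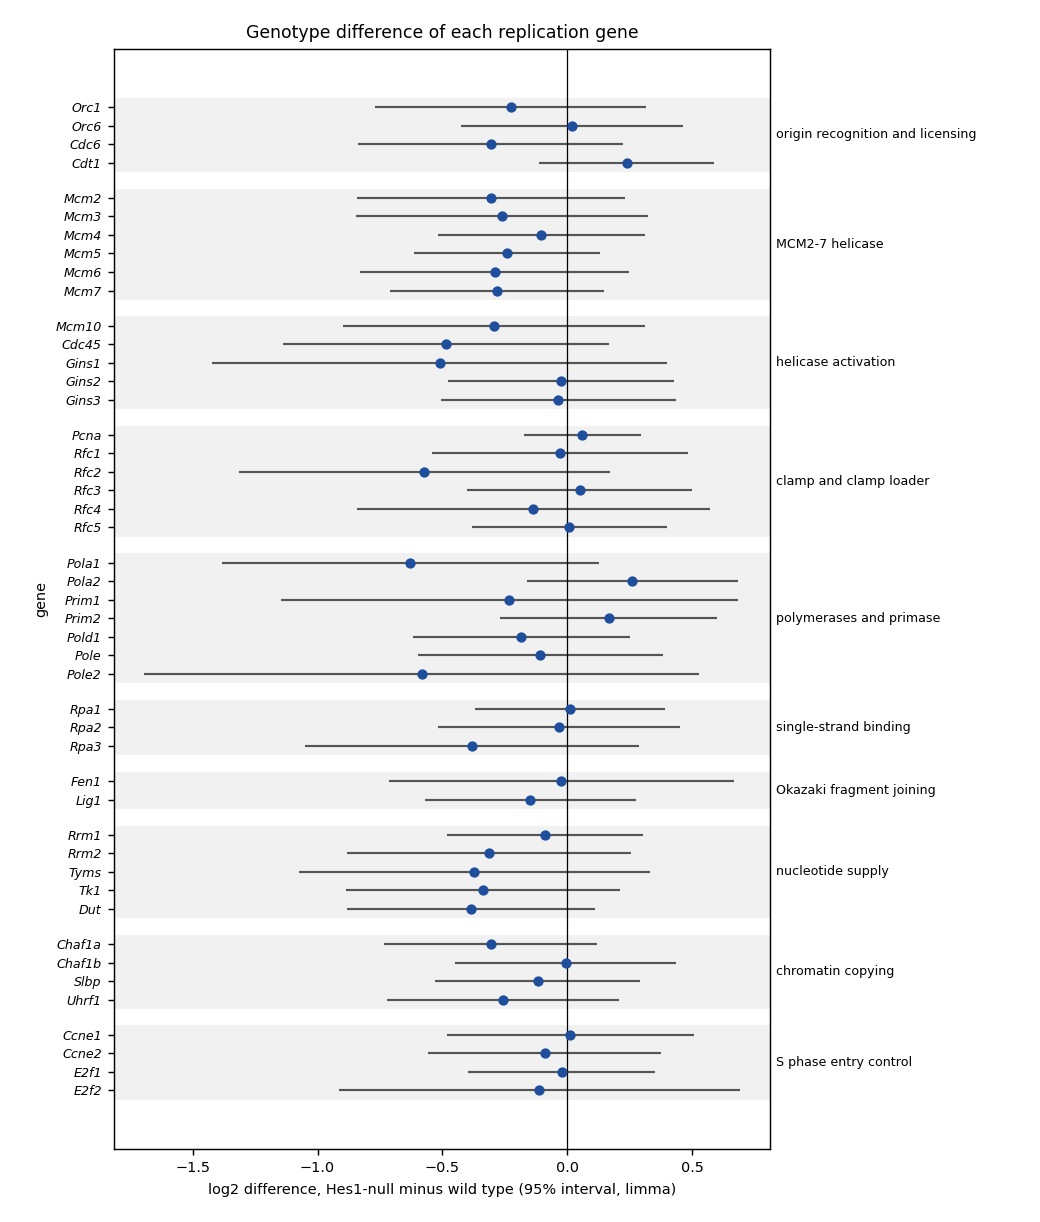
Log2 difference of each replication gene, Hes1-null minus wild type (horizontal axis), with its 95% interval from limma, for 46 genes grouped by role (vertical axis). Every interval crosses 0, and the widest, of Pole2, runs from -1.69 to 0.53.

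The Hes1-null arrays differed from each other in these genes. On Hes1-null replicate 1 the members had a median difference of 0.01 from the wild-type mean, with 26 above it and 20 below (43.5%, against 56.0% of all genes). On Hes1-null replicate 2 the median was -0.32, with 6 members above the wild-type mean and 40 below (87.0%, against 48.7% of all genes). Hes1-null replicate 2 was the lowest of the 4 arrays for 35 of 46 members (76.1%), where this held for 30.6% of all genes and for 45.2% of the genes at or above the level of the dimmest member. It was lower than Hes1-null replicate 1 for 42 members (91.3%), against 43.6% of all genes and 61.8% of the genes in that level range. That range is set by a floor only and is not matched to the levels of the members. Level was thus not held equal in these comparisons, and both shares were higher there than over all genes. Over all genes the medians were -0.04 and 0.01 on Hes1-null replicates 1 and 2, and over the genes in that level range 0.06 and -0.07. Replicate 2 minus replicate 1 had a median over the members of -0.36 for Hes1-null and -0.13 for wild type. Of the wild-type arrays, replicate 1 was the highest of all 4 for 26 members. The same held for 4360 of all 19938 genes and for 1540 of the 8986 genes in that level range. These counts describe 4 samples, and the labels give no property that sets Hes1-null replicate 2 apart.

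Members at least 1.5-fold from the wild-type mean were found on 1 array only. On Hes1-null replicate 2, 10 members (21.7%) lay at least 1.5-fold below it, where 8.22% of all genes did and 13.9% of genes at or above the level of the dimmest member. In the other direction there were 0 members, against 4.89% of all genes. On Hes1-null replicate 1 there were 0 members in either direction, where 3.17% of all genes lay that far below and 2.85% that far above. On replicate 2, Tk1 and Rrm2 lay just inside the limit, 1.5-fold and 1.53-fold below the wild-type mean. Mcm10 and Mcm2 lay just outside it, both 1.49-fold below, as did Dut and Mcm6, both 1.48-fold below. On replicate 1, E2f2 also lay just outside the limit, with a log2 difference of -0.56 from the wild-type mean. When limma was fitted with Hes1-null replicate 2 as the only Hes1-null array, 6 of 46 members were called lower and 0 higher, against 3.44% lower and 1.57% higher among all genes. Of the genes at or above the level of the dimmest member, 6.59% were called lower in that fit. The 6 were Cdc45, Gins1, Rfc2, Pola1, Prim1 and Pole2, with adjusted p from 0.0415 to 0.0489. With Hes1-null replicate 1 as the only Hes1-null array, 0 members were called (0.0752% of all genes) and 3 had an unadjusted p under 0.05, against 16.8% of all genes. In such fits the lone array is assumed to vary like the wild-type pair, so they compare arrays rather than genotypes.

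**Figure D3:**
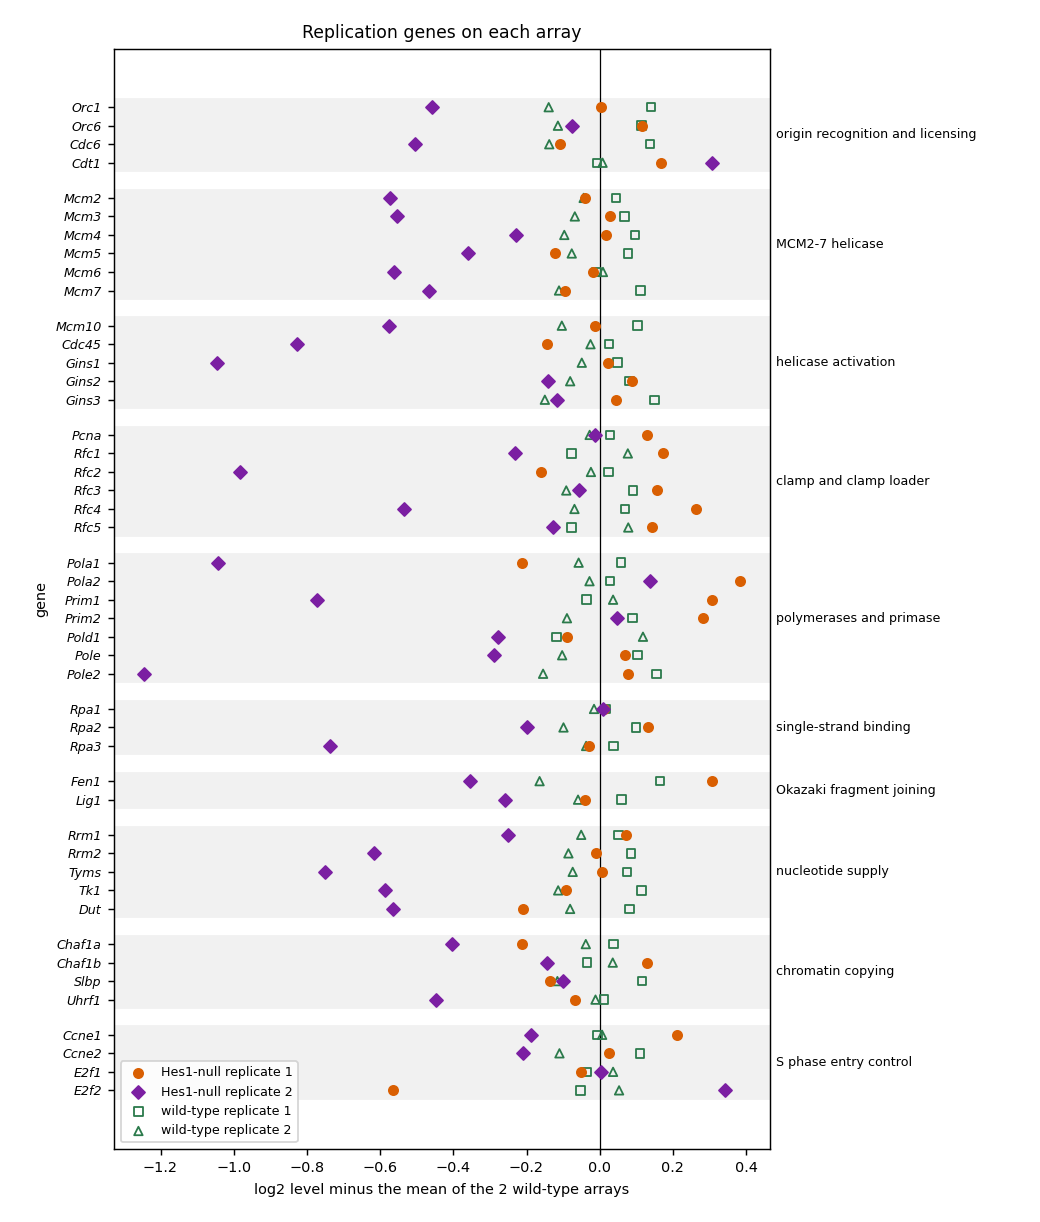
Log2 level of each replication gene on each of the 4 arrays minus the mean of the 2 wild-type arrays (horizontal axis), for 46 genes grouped by role (vertical axis). Diamonds, Hes1-null replicate 2, lie left of the other symbols for 35 genes, while filled circles, Hes1-null replicate 1, scatter around 0.

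The plot of both Hes1-null arrays against wild type shows the members stretched along the axis of replicate 2.

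**Figure D4:**
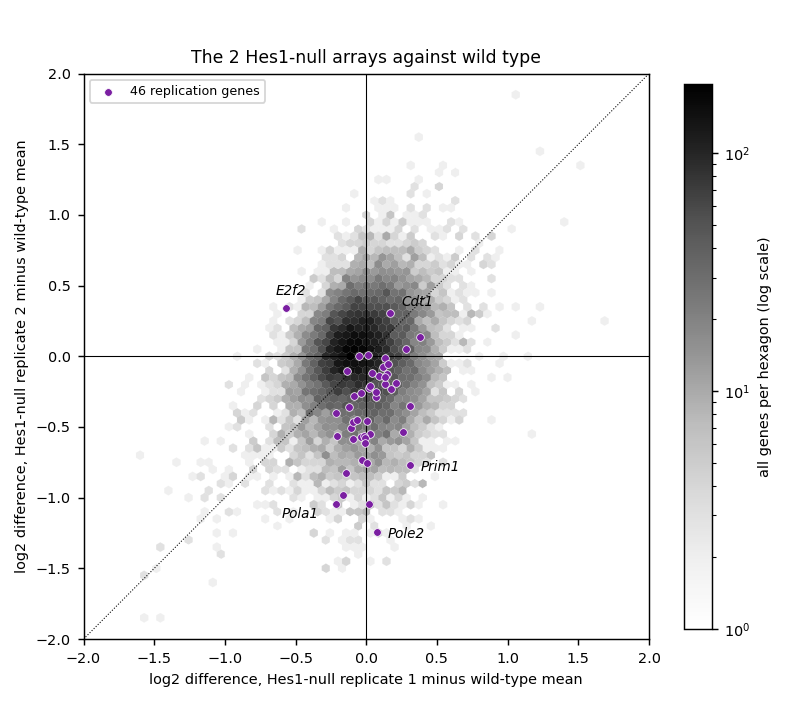
Log2 difference from the wild-type mean on Hes1-null replicate 1 (horizontal axis) and on Hes1-null replicate 2 (vertical axis), with all genes as grey hexagons and 46 replication genes as points. The axes stop at 2 in either direction, which leaves out 145 genes, none of them a replication gene; 40 members lie below 0 on the vertical axis.

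Among the licensing factors, Cdt1 and Cdc6 lay on opposite sides of wild type. Cdt1, which brings the MCM ring to the origin, had 10.21 and 10.34 on Hes1-null replicates 1 and 2, against 10.03 and 10.05 on the wild-type arrays. Both Hes1-null arrays were higher, by 0.24 ± 0.14 (unadjusted p = 0.144). Cdc6, the ATPase that works with Cdt1, had 7.49 and 7.10, against 7.74 and 7.46, and its groups overlapped (-0.31 ± 0.21). Of the origin recognition subunits, Orc6 differed by 0.02 ± 0.18 and Orc1 by -0.23 ± 0.22, with Hes1-null replicate 2 the lowest array for Orc1 and wild-type replicate 2 for Orc6.

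The 6 subunits of the MCM2-7 ring were low together on 1 array. All 6 were lowest on Hes1-null replicate 2, between 0.23 and 0.57 below the wild-type mean, with a median of -0.51. On Hes1-null replicate 1 their median was -0.03. Mcm2 had 10.10 and 9.57 on the Hes1-null arrays, against 10.18 and 10.10 in wild type, a difference of -0.31 ± 0.21. Mcm7 had 11.16 and 10.79, against 11.37 and 11.14, a difference of -0.28 ± 0.17. In both genes replicate 1 of the Hes1-null arrays lay at or within the wild-type values, while replicate 2 lay below them. The other 4 subunits differed by -0.29 ± 0.21 (Mcm6), -0.26 ± 0.23 (Mcm3), -0.24 ± 0.15 (Mcm5) and -0.10 ± 0.16 (Mcm4). Both Hes1-null arrays were below both wild-type arrays for Mcm5 and Mcm6.

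The factors that activate the ring were split. Cdc45, which joins the ring to form the active helicase, had 8.95 and 8.27 on the Hes1-null arrays, against 9.12 and 9.07 in wild type. Replicate 2 was 1.77-fold below the wild-type mean, replicate 1 was also below both wild-type arrays, and the difference was -0.49 ± 0.26. Gins1 had 8.40 and 7.34, against 8.43 and 8.33, so replicate 1 lay among the wild-type values and replicate 2 was 2.06-fold below their mean. The genes of the other GINS subunits had smaller gaps, with Gins2 0.14 and Gins3 0.12 below the wild-type mean on replicate 2 and differences of -0.03 ± 0.18 and -0.04 ± 0.19. Gins4, which is not among the 46 members, had 10.07 and 9.61 on the Hes1-null arrays, against 9.96 and 9.85 in wild type (-0.06 ± 0.20). Its replicate 1 was above both wild-type arrays and its replicate 2 below both, 0.29 below their mean. Mcm10, which helps to start unwinding, had a difference of -0.29 ± 0.24 and was 1.49-fold lower on replicate 2.

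Pcna, the sliding clamp, stayed within a narrow band. It had 12.33 and 12.18 on the Hes1-null arrays, against 12.22 and 12.17 in wild type, a difference of 0.06 ± 0.09 with a 95% interval from -0.18 to 0.29. Its second probe set ran parallel to this one on every array, so its equal difference is not a separate check. Of the clamp loader subunits, Rfc2 had 8.51 and 7.69 on the Hes1-null arrays, against 8.70 and 8.65 in wild type. The groups did not overlap, replicate 2 was 1.98-fold below the wild-type mean, and the difference was -0.57 ± 0.30 (unadjusted p = 0.106). Rfc4 was above both wild-type arrays on replicate 1 (10.34) and below both on replicate 2 (9.54), against 10.14 and 10.00 in wild type. The other loader subunits Rfc1, Rfc3 and Rfc5 had differences of -0.03 ± 0.20, 0.05 ± 0.18 and 0.01 ± 0.16.

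Subunits of 1 polymerase did not share a value. Pola1, the catalytic subunit of polymerase alpha and the only X-linked member, had 8.31 and 7.48 on the Hes1-null arrays, against 8.58 and 8.47 in wild type. Both Hes1-null arrays were lower, replicate 2 by 2.06-fold, and the difference of -0.63 ± 0.30 was the most negative of the set. Its partner subunit Pola2 had a difference of 0.26 ± 0.17, with 9.56 and 9.32 against 9.21 and 9.15, both Hes1-null arrays being higher. The catalytic primase subunit Prim1 had 9.01 and 7.93 on the Hes1-null arrays, against 8.67 and 8.74 in wild type. Replicate 1 was above both wild-type arrays and replicate 2 was 1.71-fold below their mean. The large primase subunit Prim2 differed by 0.17 ± 0.17. Pole2, an accessory subunit of polymerase epsilon, had the widest gap between Hes1-null arrays in the set, with 8.74 and 7.42, against 8.82 and 8.51 in wild type. Replicate 2 was 2.37-fold below the wild-type mean and replicate 1 lay between the wild-type arrays, which gives -0.58 ± 0.44. Its catalytic partner Pole differed by -0.11 ± 0.20. Pold1, the catalytic subunit of polymerase delta, had 9.46 and 9.27, against 9.43 and 9.66, and its groups overlapped (-0.18 ± 0.17).

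RPA, the trimer that coats single-stranded DNA, was likewise uneven. Rpa1 had 9.20 on both Hes1-null arrays, against 9.20 and 9.17 in wild type, a difference of 0.01 ± 0.15. Rpa2 differed by -0.03 ± 0.19. Rpa3 had 9.03 and 8.32, against 9.10 and 9.02, so replicate 2 alone lay below wild type, by 1.67-fold. Its second probe set was 0.71 below the wild-type mean on replicate 2 and 0.24 below on replicate 1. Of the genes that finish Okazaki fragments, the flap nuclease gene Fen1 differed by -0.02 ± 0.27, with replicate 1 above both wild-type arrays and replicate 2 below both. The ligase gene Lig1 had 9.27 and 9.05 on the Hes1-null arrays, against 9.37 and 9.25 in wild type (-0.15 ± 0.17).

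Genes of nucleotide supply were all lowest on Hes1-null replicate 2, and their differences were all negative. Rrm2, the subunit of ribonucleotide reductase that follows S phase, had 10.84 and 10.23 on the Hes1-null arrays, against 10.93 and 10.76 in wild type (-0.31 ± 0.23). The larger subunit Rrm1 had 10.88 and 10.56, against 10.86 and 10.76, a difference of -0.09 ± 0.16. In both, replicate 1 lay near the wild-type values and replicate 2 below them. The thymidylate synthase gene Tyms had 9.34 and 8.58, against 9.41 and 9.26 (-0.37 ± 0.28). Dut, whose product removes dUTP, had 8.12 and 7.76, against 8.41 and 8.25, with both Hes1-null arrays lower (-0.39 ± 0.20, unadjusted p = 0.104). The thymidine kinase gene Tk1 had 9.77 and 9.28, against 9.98 and 9.75 (-0.34 ± 0.22). Its dimmer probe set gave a smaller gap, 0.27 below the wild-type mean on replicate 2 where the brighter one was 0.59 below, so its place among the 10 members past 1.5-fold rests on which probe set is read. With the dimmer one, a setting chosen after seeing the data, 9 members lay past 1.5-fold and the median of nucleotide supply on replicate 2 was -0.56, against -0.59 with the brighter one. The sources used here do not show which of the 2 probe sets lies at the Tk1 gene itself, and the same holds for Pcna, Rpa3 and Slbp.

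Among genes that copy chromatin, Chaf1a, the large subunit of the histone chaperone CAF-1, had 8.39 and 8.20 on the Hes1-null arrays, against 8.64 and 8.56 in wild type. Neither Hes1-null array reached the wild-type values (-0.31 ± 0.17, unadjusted p = 0.125). Chaf1b, another CAF-1 subunit, differed by -0.01 ± 0.18. Uhrf1, which recruits the maintenance DNA methyltransferase to copied DNA, had 9.68 and 9.30, against 9.76 and 9.73 (-0.26 ± 0.18). Both of its Hes1-null arrays were lower as well. Slbp, the binding protein of histone mRNA, differed by -0.12 ± 0.16, and its second probe set by -0.10.

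The genes that control S phase entry had the median nearest 0 of the role groups on Hes1-null replicate 2, at -0.09, where the other groups ran from -0.59 to -0.18. E2f1, the transcription factor gene, had 9.44 and 9.49 on the Hes1-null arrays, against 9.45 and 9.52 in wild type, a difference of -0.02 ± 0.15. E2f2 had 7.89 and 8.80, against 8.40 and 8.51, so replicate 1 was the lowest array and replicate 2 the highest. In most members replicate 2 was the lowest array. The E2f2 difference was -0.11 ± 0.32. The cyclin E genes Ccne1 and Ccne2 differed by 0.01 ± 0.20 and -0.09 ± 0.19, and both were lowest on replicate 2, 0.19 and 0.21 below the wild-type mean. The difference between role groups was not tested, since members are not replicates.

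Counted over the whole set, both Hes1-null arrays were below both wild-type arrays for 8 members (17.4%), against 20.6% of all genes and 20.4% of those at or above the level of the dimmest member. They were above both for 2 members (4.35%), against 17.4% and 23.6%. The 8 were Mcm5, Mcm6, Cdc45, Rfc2, Pola1, Dut, Chaf1a and Uhrf1, and the 2 were Cdt1 and Pola2. The share below is near that of all genes. For the other 36 members the genotypes overlapped. The 15 members with an E2F string in a promoter had a median of -0.45 on Hes1-null replicate 2, with values from -1.24 to 0.34, and the 24 with a promoter entry but no such string had a median of -0.30, with values from -0.83 to 0.14. The ranges overlapped, and E2f2, the member highest on that array relative to wild type, holds the string.

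Other genes of the replication pathway and genes of mitosis were also mostly lowest on Hes1-null replicate 2. Of 49 measured among 51 further replication genes, 0 passed the adjusted threshold, and 1 was lower and 0 higher at an unadjusted p under 0.05. Among all genes 0.145% passed the adjusted threshold and 8.29% the unadjusted one. The median difference of the 49 was -0.14, with 0.11 on Hes1-null replicate 1 and -0.30 on replicate 2, and 37 of 49 were lowest on replicate 2. Replicate 2 was the lowest array for 30.6% of all genes and 45.2% of those at or above the level of the dimmest member. The highest array was Hes1-null replicate 1 for 27 of the 49, whereas among the 46 members it was Hes1-null replicate 1 for 15 and wild-type replicate 1 for 26. Hes1-null replicate 1 was the highest for 4660 of all 19938 genes. Among the 8986 genes at or above the level of the dimmest member, it was the highest for 3300. The gene with an unadjusted p under 0.05 was Dck, which encodes the salvage enzyme deoxycytidine kinase, with 7.68 and 7.65 on the Hes1-null arrays, against 8.08 and 8.22 in wild type (-0.48 ± 0.16, unadjusted p = 0.0288, adjusted p = 0.529). Of 28 measured among 29 genes of G2 phase and mitosis, 0 passed the adjusted threshold, and 1 was lower and 0 higher at an unadjusted p under 0.05, against the same 0.145% and 8.29% of all genes. Their median was -0.16, with 0.02 and -0.33 on Hes1-null replicates 1 and 2. Of the 28, 24 were lowest on replicate 2, against the same 30.6% and 45.2%, while 12 were highest on Hes1-null replicate 1. The gene was Kif23, a kinesin gene of cell division, with 9.80 and 9.43, against 10.14 and 10.04 (-0.47 ± 0.18, unadjusted p = 0.0449, adjusted p = 0.593). Mki67, the gene of the proliferation marker Ki-67, had 11.08 and 10.83, against 11.26 and 11.31, both Hes1-null arrays being lower (-0.33 ± 0.13, unadjusted p = 0.053, adjusted p = 0.609). The median of 12 measured G1 cyclins, kinases and inhibitors was -0.08 on replicate 1 and -0.10 on replicate 2.

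**Figure D5:**
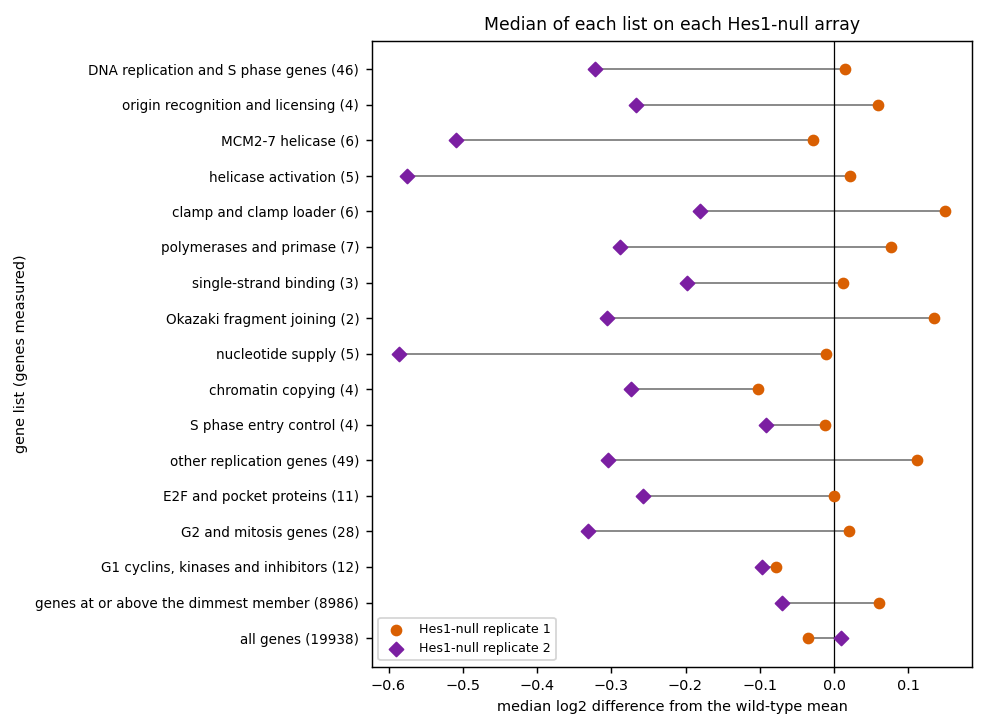
Median log2 difference from the wild-type mean (horizontal axis) on each Hes1-null array for the replication genes, their role groups, related lists and all genes (vertical axis, genes measured in brackets). Replication genes lie at 0.01 and -0.32 on Hes1-null replicates 1 and 2, and all genes at -0.04 and 0.01.

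Markers of marrow cell types were read on the same arrays, since whole marrow mixes cells that divide at different rates. Of 15 neutrophil markers, all measured, 13 had a negative difference, with summed linear intensities of 24373.5 and 24465.3 on the Hes1-null arrays, against 39975.7 and 48044.7 on the wild-type arrays. Of 11 measured monocyte and macrophage markers, 8 had a negative difference, with sums of 14382.8 and 13666.8, against 19704.3 and 18283.6. Over all genes, 10677 of 19938 had a negative difference. Bright genes weigh most in the neutrophil sums, such as Elane, with 11.70 and 11.17, against 13.01 and 13.08. Of the 15 neutrophil markers, 2 had a positive difference, Ctsg and Mmp8. Ctsg, also bright, had 12.37 and 12.38, against 12.33 and 11.87. Leukemic and normal cells cannot be told apart in these sums. The neutrophil and the monocyte and macrophage sums were lower on both Hes1-null arrays than on either wild-type array. So were the erythroid, T cell and stromal sums given below, but not the B cell and progenitor sums. Of 9 measured erythroid markers, 7 were lowest on Hes1-null replicate 1 and 2 on replicate 2, with sums of 698 and 724, against 896 and 740. Kit, a progenitor receptor gene in the progenitor list of 6, lay at 8.29 and 6.39 on the Hes1-null arrays, against 9.02 and 8.87 in wild type, and was lowest on replicate 2. Of the 6 progenitor genes, 4 had a positive difference and 2 a negative one. On replicate 2, 3 of them were lowest and 2 were highest. The list as a whole had medians of 0.14 and -0.10 on replicates 1 and 2, with sums of 9801 and 7774, against 8744 and 8490. B cell marker sums were 1816 and 1030, against 1255 and 1245 (9 markers measured of 10), T cell sums 355 and 316, against 878 and 554 (6 measured of 8), and stromal sums 1302 and 1020, against 2475 and 2724 (10 measured of 10). Cd28 carried most of the gap in the T cell sums, which without it were 285.1 and 249.3, against 338.4 and 321.3. Lpl did so in the stromal sums, which without it were 1001.1 and 870.3, against 1218.4 and 1151.3. Cd79b, the brightest B cell marker, made up most of the B cell sums, with 10.48 and 9.50, against 9.85 and 9.86. Cd28, Lpl and Cd79b were picked for this after seeing the data. The part of these cell markers in the low values of Hes1-null replicate 2 was not tested.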

How the data were processed

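Leukemic whole bone marrow was profiled on 4 Affymetrix mouse gene arrays, 2 per genotype, grouped by the sample labels. The deposited values are probe set intensities that the authors summarised by RMA (Affymetrix Expression Console), as the submitters' processing notes name it. The sources used here name no version or build. The deposited values are linear, so log2 was taken for this work, with nothing added. RMA evens out arrays, so a difference in total RNA per sample would not show, and the number of arrays limits precision. Of 35556 probe sets, 21789 have 1 symbol, 1621 have several and 12146 are not listed in the platform annotation. Only those with 1 symbol were used, the brightest for each gene, giving 19938 genes. Outside the fit, levels are compared between genes only to rank members or markers by brightness, to set floors on level and to sum markers.

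The test was limma 3.58.1 (R 4.3.3, two-sided, intensity trend, genotype as the only term, no filter on dim genes), adjusted over all genes by Benjamini-Hochberg with a threshold of 0.05, after the test was tried on simulated data. Residual and prior degrees of freedom were 2 and 3.41. Members, role groups and lists were chosen with earlier results of these data known, so no list was tested as a set. Values on each array are given for members with an unadjusted p under 0.05, members at least 1.5-fold from the wild-type mean on a Hes1-null array, and the largest difference and brightest member of each role. Rfc4 and Pola2 were added after their values were seen. Of each other list, up to 4 genes with the smallest p could be named. Gins4, Ccnd2, Cdkn2d, Myc, Cd79b, Ctsg and Mmp8 were named outside this rule. The alternatives were a further quantile normalization, median centring, a level filter at the 25th percentile, no trend, averaging the probe sets of a gene, the replicate number as a block, and each array left out. Promoters and gene identities came from RefSeq GRCm38.p6, to which 46 of 46 members matched by Entrez identifier. The fit with 1 Hes1-null array by direction, and the comparison with genes at or above the level of the dimmest member, were added after seeing the data.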

Additional observations from a re-analysis of the deposited data

How the results depend on the processing

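The count of 0 replication genes called held under each alternative run except 1: without Hes1-null replicate 1 it was 6, so with each array left out it ranged from 0 to 6. The median difference over the members was -0.14 and ranged from -0.32 without Hes1-null replicate 1 to 0.015 without Hes1-null replicate 2, and from -0.15 to -0.14 under the alternatives that keep all arrays. The median on Hes1-null replicate 2 was -0.27 after a further quantile normalization and -0.33 after centring. On Hes1-null replicate 1, where it was 0.015, it was -0.033 after quantile normalization. The count over all genes was 29, and it was 46 after quantile normalization, 17 with the filter on level, 89 with the replicate block and from 6 (without wild-type replicate 2) to 999 (without Hes1-null replicate 1) with each array left out. The replicate number was not taken as pairing the samples: over all genes the deviations of same-numbered arrays correlated at r = 0.05, and no label states what arrays of 1 number have in common. With the replicate block 1 member had an unadjusted p under 0.05. Among the member differences, the sign turned for 2 after quantile normalization, Rfc5 (-0.017) and Chaf1b (0.0048), and for 0 under the other alternatives that keep all arrays. It turned for 17 members without Hes1-null replicate 2, 7 without Hes1-null replicate 1 and 6 without either of the wild-type arrays, in 25 members in all. With each array left out, their differences ranged as follows: Orc1 -0.46 to 0.0043, Orc6 -0.095 to 0.13, Mcm3 -0.55 to 0.028, Mcm4 -0.23 to 0.018, Gins1 -1.04 to 0.022, Gins2 -0.14 to 0.088, Gins3 -0.19 to 0.11, Pcna -0.012 to 0.13, Rfc1 -0.23 to 0.17, Rfc3 -0.058 to 0.16, Rfc4 -0.54 to 0.26, Rfc5 -0.13 to 0.14, Prim1 -0.77 to 0.31, Pole -0.29 to 0.070, Pole2 -1.24 to 0.077, Rpa1 -0.0046 to 0.027, Rpa2 -0.20 to 0.13, Fen1 -0.35 to 0.31, Rrm1 -0.25 to 0.072, Tyms -0.75 to 0.0068, Chaf1b -0.14 to 0.13, Ccne1 -0.19 to 0.21, Ccne2 -0.21 to 0.026, E2f1 -0.059 to 0.013, E2f2 -0.56 to 0.34. The cause was not tested.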

Other observations

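Regulators upstream of the replication genes were measured as well. Rb1, the retinoblastoma gene that restrains E2F factors, lay at 8.99 and 9.15 on Hes1-null replicates 1 and 2, against 9.57 and 9.63 on the wild-type arrays. Both Hes1-null arrays were lower, by -0.53 ± 0.16 (SE, n = 2 arrays per genotype), with an unadjusted p of 0.0187 by limma and an adjusted p of 0.458. Tfdp2, a dimer partner gene of E2F factors, lay at 8.72 and 8.87, against 8.47 and 8.32, a difference of 0.40 ± 0.17 (limma, adjusted p = 0.614). Of the 11 measured genes of this list of E2F factors, their partners and pocket proteins, 0 passed the adjusted threshold.

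Cdk4, the kinase gene of G1 phase, lay at 12.19 and 11.26 on Hes1-null replicates 1 and 2, against 12.25 and 11.99 in wild type, so replicate 2 was its lowest array. Of the 12 measured G1 cyclins, kinases and inhibitors, 5 were lowest and 5 were highest on that array. On that array 3 of the 12 lay at least 1.5-fold below the wild-type mean and 2 at least 1.5-fold above it. Ccnd2 lay 0.91 and Cdkn2d 0.88 above that mean there, and Myc had a difference of -1.26 from it. Ccnd2, Cdkn2d and Myc were named after their values were seen. Cdkn2a, an inhibitor gene, lay at 6.29 and 6.37, against 6.63 and 6.67, with both Hes1-null arrays lower (-0.33 ± 0.14, unadjusted p = 0.0603, adjusted p = 0.615). The cyclin-dependent kinase inhibitor gene Cdkn2c lay at 10.55 and 10.10, against 10.67 and 10.73, and Cdkn1b at 10.00 and 10.20, against 9.83 and 9.90. None of Cdk4, Cdkn2a, Cdkn2c and Cdkn1b had an unadjusted p under 0.05.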
